A study of Mus musculus with 4 samples.

Results

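Sterol regulatory element-binding proteins (SREBPs) are transcription factors that switch on the enzymes with which a cell makes its own cholesterol and fatty acids. Of 32 genes listed as their targets and regulators, 31 were measured, out of 18820 genes tested. The samples were mouse embryonic stem cells labelled as wild type or as a Trim28 (KAP1) knockout. The members were taken by symbol, each read from a probe set annotated to that gene alone, and the probe set with the highest mean stood for the gene. They fall into a sterol branch (19 of 20 measured), a fatty acid branch (9 of 9) and 3 regulators. Acat2, of the sterol branch, had no probe set listed for it alone and was not analysed here.

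The knockout group, KAP_KO, held 2 arrays of embryonic stem cells labelled as a knockout of a KAP1 fl/fl genotype, and the control group, KAP_WT, held 2 arrays of wild-type embryonic stem cells. KAP1 is another name for Trim28, a co-repressor recruited to chromatin by zinc finger proteins with a KRAB domain. All 4 samples carry the label of 4-OH-tamoxifen treatment, although the protocol also names a vehicle arm; it gives 24 h with the drug or vehicle and then 48 h without. Irradiated embryonic fibroblasts served as feeder cells, and the recombinase, its promoter and the number of clones are not stated in the labels. The samples are labelled biological replicates, but nothing says that they came from separate cultures, so p-values measure only the spread between these arrays. If the genotypes came from separate lines, line and loss of Trim28 cannot be told apart.

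Trim28 had log2 values of 8.97 and 8.92 in KAP_KO and of 11.29 and 11.37 in KAP_WT, a 5.22-fold lower level (limma adjusted p = 3.39e-05). In KAP_KO it stayed above the array medians of 5.66 and 5.63. The marker lists below were chosen with earlier results of these data known. Over all tested genes 14.2% were called higher and 12.7% lower (limma adjusted p under 0.05). With genes below the median level left out of the fit, 1906 of 9410 were called higher and 2028 lower. Of 10 markers of embryonic stem cells 7 were lower in KAP_KO and 0 were higher; 5 were lower without KAP_KO replicate 2, and 1 without either KAP_WT replicate. Their summed linear level was 11902 to 13802 in KAP_KO and 17118 to 17472 in KAP_WT. Of 20 genes listed as fibroblast markers, 13 were higher and 0 lower. Their summed level was 1494 to 1621 in KAP_KO and 882 to 1036 in KAP_WT. Only 8 of the 20 lay above the median level of the tested genes. Their expression in the feeder cells was not measured, and other cells can express some of them. The changes of these 20 ran from -0.08 (Fap) to 2.64 (Dcn), with a median of 0.89; the collagen gene Col1a1 read 7.75 and 7.57 in KAP_KO and 6.13 and 5.63 in KAP_WT. The part of feeder cells in the marker or lipid gene results was not tested. In RNA from a whole culture, fewer cells of a type and less RNA per cell cannot be told apart.

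SREBP precursors sit in the endoplasmic reticulum with the escort protein Scap. When membrane sterols are low, Scap carries them to the Golgi, where proteases free the part that enters the nucleus. When sterols are plentiful, Insig proteins hold Scap back. Srebf2 chiefly serves cholesterol synthesis and Srebf1 chiefly fatty acid synthesis, with overlap. Classical target promoters carry a sterol regulatory element beside binding sites for the helper factors NF-Y, which binds CCAAT, and Sp1, which binds GGGCGG. Acetyl-CoA feeds both branches.

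Promoter windows from RefSeq (GRCm38.p6), the 250 bases before an annotated transcript start, were found for 25 of the 32 members. Some genes have several annotated starts, and the first one listed was used. For Acaca that start lies 65803 bases inside the gene and for Srebf1 1605 bases, while the other 23 lie within 1000 bases of the gene's 5′ end. The sterol element core TCACNCCAC, on either strand, was present in 1 of the 25 windows (4.0%) and in 280 of 27025 windows over all genes (1.04%). CCAAT on either strand was present in 19 of 25 member windows (76.0%), against 34.5% of all windows, and GGGCGG likewise in 19 of 25 (76.0%), against 32.9%. In the sterol branch each of these letter runs was in 14 of 16 windows (87.5%). In the fatty acid branch CCAAT was in 2 of 6 windows and GGGCGG in 3 of 6, or 2 of 5 and 3 of 5 without Acaca. The windows over all genes include genes not tested here, and windows of genes with a like expression level were not compared. The windows of Hmgcs1, Idi1, Cyp51 and Fads2 are printed here, since Hmgcs1 alone held the element core and the others belong to the members with the largest rises in each branch. Capitals mark the element core and CCAAT, read on either strand (ATTGG on the other), and no marked or GGGCGG match overlaps another in these 4 windows.
Hmgcs1, chr13:119690101-119690350, plus strand: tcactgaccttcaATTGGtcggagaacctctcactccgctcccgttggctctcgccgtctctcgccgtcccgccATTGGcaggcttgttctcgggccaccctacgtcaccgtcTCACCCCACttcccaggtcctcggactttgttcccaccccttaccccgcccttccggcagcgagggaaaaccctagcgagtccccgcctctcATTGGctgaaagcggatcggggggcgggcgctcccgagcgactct
Idi1, chr13:8885356-8885605, plus strand: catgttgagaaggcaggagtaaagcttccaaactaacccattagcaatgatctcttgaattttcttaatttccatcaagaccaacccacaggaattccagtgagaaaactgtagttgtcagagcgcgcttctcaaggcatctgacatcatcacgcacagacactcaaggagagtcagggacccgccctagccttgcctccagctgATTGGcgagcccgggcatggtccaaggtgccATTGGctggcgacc
Cyp51, chr5:4104698-4104947, minus strand: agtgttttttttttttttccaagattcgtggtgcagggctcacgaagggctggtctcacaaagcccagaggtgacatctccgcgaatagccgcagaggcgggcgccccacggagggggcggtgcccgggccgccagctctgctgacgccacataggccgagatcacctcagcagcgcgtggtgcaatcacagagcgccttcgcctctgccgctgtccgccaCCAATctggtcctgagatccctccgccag
Fads2, chr19:10101504-10101753, minus strand: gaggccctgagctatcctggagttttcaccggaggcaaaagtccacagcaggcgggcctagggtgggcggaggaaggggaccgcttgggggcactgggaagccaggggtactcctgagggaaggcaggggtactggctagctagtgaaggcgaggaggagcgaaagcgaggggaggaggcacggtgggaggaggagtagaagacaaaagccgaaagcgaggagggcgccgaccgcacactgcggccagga

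The element core in Hmgcs1 reads TCACCCCAC and begins at position -137, counted from the start. Hmgcs1 holds 3 CCAAT matches, Idi1 has 2, Cyp51 has 1 and Fads2 has 0. A match is a run of letters and not a measured binding site.

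The share of these genes that changed was near that of all genes tested, but below that of the brighter genes. In KAP_KO, 6 members rose, 1 fell and 24 did not pass (limma, Benjamini-Hochberg adjusted p under 0.05 over all 18820 genes). The 7 called members are 22.6% of 31, near the 26.9% called among all genes tested, 14.2% higher and 12.7% lower. All 31 members lay above the median level of the tested genes. With genes below that level left out of the fit, 41.8% of the remaining genes were called, and the same 7 members. With each array's median subtracted, calls over all genes split into 2065 higher and 6392 lower, against 2676 and 2395 on the deposited scale. No member changed 2-fold, and the member with the largest change was Fads2. Of the 18820 tested genes, 1109 were called and also changed at least 2-fold. The median change of the members was 0.08 on the log2 scale, against -0.05 for all tested genes. Groups did not overlap for 19 of the 31 members (61.3%), against 65.2% of all genes. Of the 31 members, 21 had a 95% confidence interval that lay within 0.5 of no change on the log2 scale. The same share over all tested genes was not computed, so this count does not set the members apart from other genes.

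**Figure D1:**
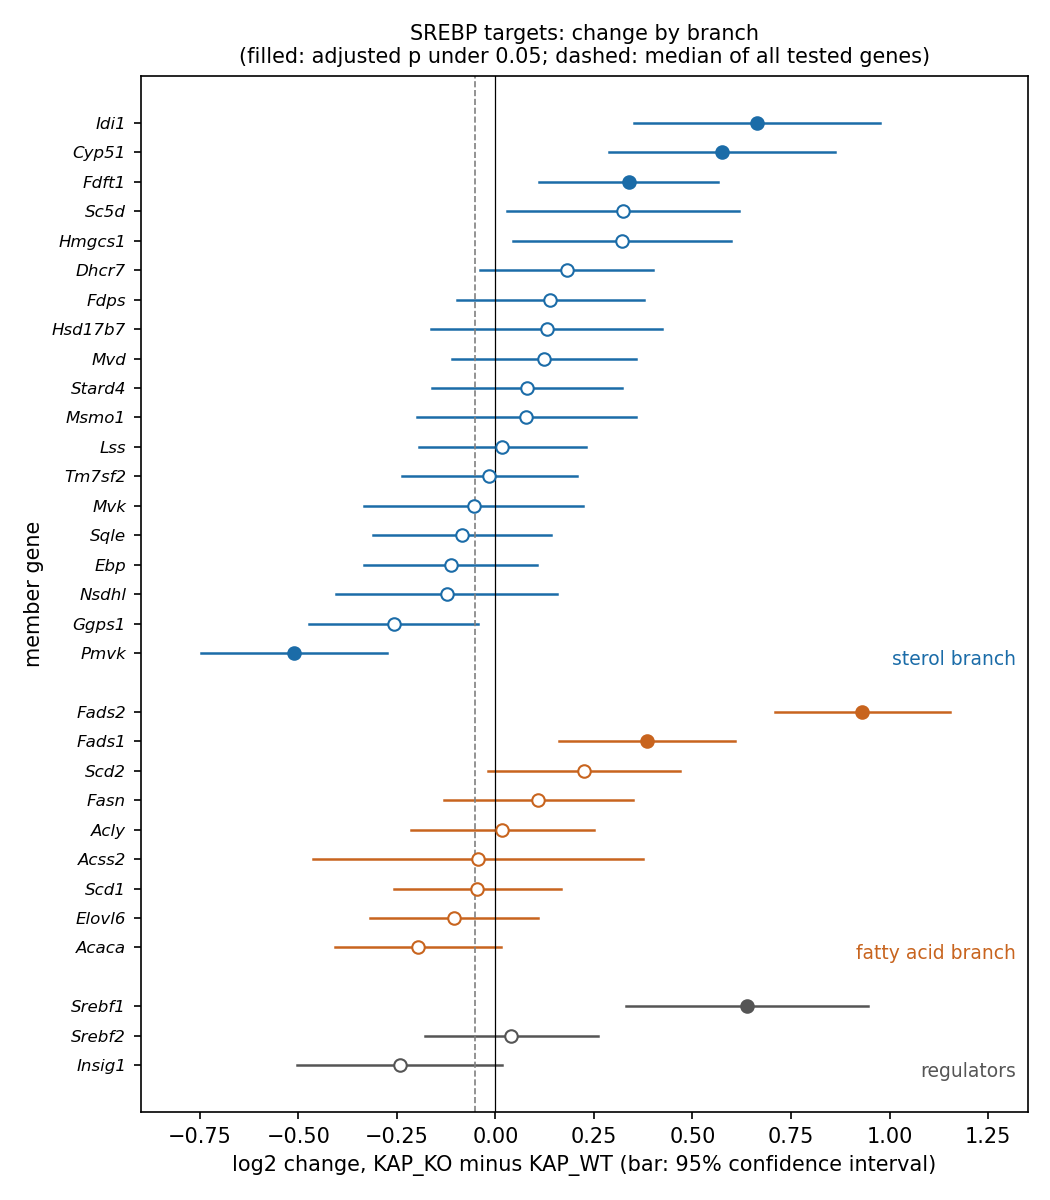
The log2 change (KAP_KO minus KAP_WT, horizontal axis) of the 31 measured members, sorted within the sterol branch, fatty acid branch and regulators; bars are 95% confidence intervals from limma, filled points have an adjusted p under 0.05, and the dashed line is the median of all tested genes. The sterol branch has filled points on both sides of 0 (Idi1, Cyp51 and Fdft1 to the right, Pmvk to the left), and Fads2 lies farthest right at 0.93.

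In the sterol branch 3 of 19 measured members rose (Idi1, Cyp51 and Fdft1) and 1 fell (Pmvk), while 15 did not pass. The branch median was 0.08, or 0.13 above the median of all tested genes. With each array's median subtracted, the median over all genes moved to -0.22 and that of the branch to -0.09, with 2 members called higher and 2 lower. This scaling moves every gene by the same amount, so it turns the sign of the branch median and cannot alter its distance from the median of all genes.

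The early, mevalonate part of the branch went both ways. Idi1 isomerises isopentenyl diphosphate, the building block of all isoprenoids. Its log2 values were 9.19 and 9.53 in KAP_KO and 8.65 and 8.74 in KAP_WT. Both knockout arrays were above both wild-type arrays, and KAP_KO replicate 2 was the highest. The rise was 0.66 (SE 0.13, limma adjusted p = 0.0107), a 1.58-fold higher level with a 95% interval of 1.28 to 1.97. A second probe set of Idi1 gave 0.67 (adjusted p = 0.0114 over every single-gene probe set). The call of Idi1 was lost without KAP_WT replicate 1 (adjusted p = 0.0942) or replicate 2 (adjusted p = 0.0747).

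Pmvk, the kinase that makes mevalonate diphosphate, was the member that fell. It read 6.97 and 6.93 in KAP_KO and 7.38 and 7.54 in KAP_WT, so the groups did not overlap. The change was -0.51 (SE 0.10, limma adjusted p = 0.0101), and the adjusted p was 0.0736 without KAP_WT replicate 2. Its neighbours in the pathway did not pass: Mvk, the kinase before it, had a change of -0.06 (95% interval -0.33 to 0.22) and Mvd, the decarboxylase after it, one of 0.12 (-0.11 to 0.36).

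Hmgcs1 encodes the synthase that makes HMG-CoA at the start of the pathway. Its values were 9.45 and 9.61 in KAP_KO and 9.32 and 9.10 in KAP_WT. The knockout arrays lay above the wild-type arrays, but the difference of 0.32 missed the threshold (limma adjusted p = 0.0868). Fdps, the farnesyl diphosphate synthase, had a change of 0.14 (adjusted p = 0.363). Ggps1, which draws farnesyl diphosphate off towards geranylgeranyl groups, had one of -0.26 (adjusted p = 0.0790), with both knockout arrays (7.27 and 7.26) below both wild-type arrays (7.48 and 7.56).

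Fdft1, squalene synthase, commits farnesyl diphosphate to sterols. It read 9.79 and 9.83 in KAP_KO and 9.54 and 9.41 in KAP_WT, without overlap. The rise of 0.34 (SE 0.10, limma adjusted p = 0.0403) lost its call without any 1 of the 4 arrays, with adjusted p between 0.0805 and 0.176. It was also lost with array medians subtracted (adjusted p = 0.197). Fdft1 lies on chromosome 14 near Gata4, a transcription factor gene that rose by 1.47. The median change of the 25 tested genes on each side of Fdft1 was 0.10, and 1 of its 8 nearest tested genes was higher.

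Cyp51, lanosterol demethylase, rose as well. Its values were 8.60 and 8.89 in KAP_KO and 8.20 and 8.14 in KAP_WT, with both knockout arrays above both wild-type arrays. The change was 0.57 (SE 0.12, limma adjusted p = 0.0135), 1.49-fold (95% interval 1.22 to 1.82). The adjusted p was 0.0505 without KAP_KO replicate 2, 0.0798 without KAP_WT replicate 1 and 0.105 without KAP_WT replicate 2. On chromosome 5 the tested genes next to Cyp51 on one side, Fzd1, Cdk14 and Cldn12, were higher too, by 0.80, 1.73 and 0.69. The median over the 33 tested genes taken around it was 0.01.

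The other enzymes between squalene and cholesterol did not pass. Sqle, the epoxidase that is a rate-limiting step after HMG-CoA reductase, read 9.36 and 9.47 in KAP_KO and 9.53 and 9.46 in KAP_WT. These groups overlapped, and the change was -0.08 (95% interval -0.31 to 0.14). Lss, which closes the sterol rings, had a change of 0.02 (-0.19 to 0.23). Sc5d, the sterol desaturase near the end of the pathway, read 8.55 and 8.86 in KAP_KO and 8.41 and 8.36 in KAP_WT. Its change of 0.32 missed the threshold (limma adjusted p = 0.101) and passed without KAP_KO replicate 1 (0.48, adjusted p = 0.0282). Dhcr7, the last reductase, had a change of 0.18 (adjusted p = 0.204). Msmo1, Nsdhl and Hsd17b7, which take part in removing methyl groups from the sterol nucleus, had changes of 0.08, -0.12 and 0.13, and the groups overlapped for each of them. The reductase Tm7sf2 had one of -0.02 and the isomerase Ebp one of -0.11. Stard4, a cytosolic sterol carrier and not an enzyme, had a change of 0.08 (adjusted p = 0.617).

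**Figure D2:**
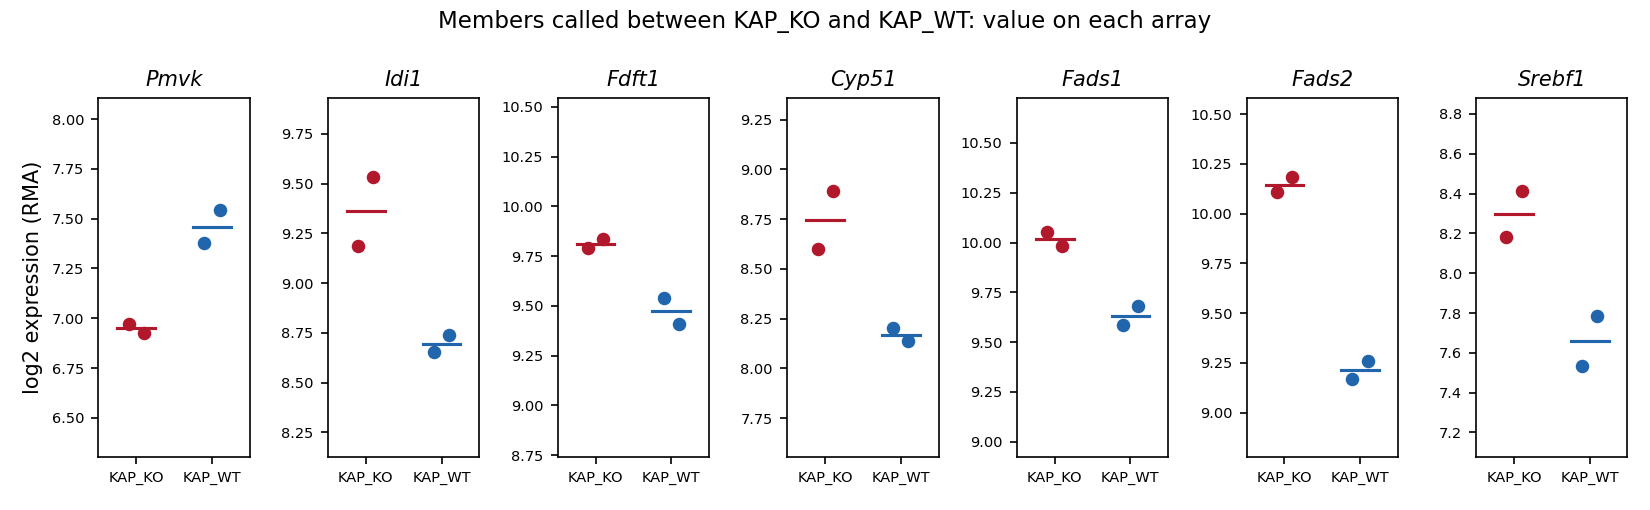
Log2 expression (RMA, vertical axis, each panel spanning the same range) of the 7 called members on each array; points are arrays and short lines are means of 2 arrays, KAP_KO in red and KAP_WT in blue. Pmvk is lower in KAP_KO, the 6 others are higher, and the groups do not overlap in any panel.

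In the fatty acid branch the desaturases Fads1 and Fads2 rose and, on the probe sets used, none of the 9 members was called lower. The dimmer probe set of Acaca was lower (-0.38, limma adjusted p = 0.0230 over every single-gene probe set). The branch median was 0.02, 0.07 above that of all tested genes. With array medians subtracted it was -0.15, 1 member was called higher (Fads2) and Acaca and Elovl6 were called lower. In that setting 6392 of the 18820 tested genes were called lower.

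Fads2 encodes the desaturase that opens the route from essential fatty acids to long polyunsaturated ones. It read 10.11 and 10.18 in KAP_KO and 9.17 and 9.26 in KAP_WT. The groups lay far apart beside the small differences between replicates. The rise was 0.93 (SE 0.09, limma adjusted p = 7.51e-04), a 1.91-fold higher level (95% interval 1.63 to 2.23). Fads2 was the only member called under all 14 alternatives, with a highest adjusted p of 0.0172.

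Fads1, the desaturase that acts later on the same route, read 10.05 and 9.98 in KAP_KO and 9.59 and 9.68 in KAP_WT. The groups did not overlap. The rise was 0.38 (SE 0.09, limma adjusted p = 0.0235). It lost its call without any 1 of the 4 arrays, with adjusted p between 0.0570 and 0.121, and with array medians subtracted (adjusted p = 0.0956).

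These genes are neighbours on chromosome 19, where Fads3, another desaturase-family gene but not one of the 32, lies on the other side of Fads2. Fads3 was picked out after its values were seen. It read 6.45 and 6.72 in KAP_KO and 5.66 and 5.52 in KAP_WT, a rise of 1.00 (limma adjusted p = 0.00151), with the highest adjusted p 0.0315 when 1 array was left out. The rise did not extend evenly along the chromosome. Next to Fads1, Fen1 had a change of -0.12 (adjusted p = 0.374), Tmem258 one of -0.46 (adjusted p = 0.0155) and Myrf one of -0.85 (adjusted p = 0.00417). The call of Tmem258 was lost without KAP_KO replicate 1 or either KAP_WT replicate (adjusted p of up to 0.103), and that of Myrf without either KAP_WT replicate (0.0502 and 0.0558). On the Fads3 side, Rab3il1 (0.13), Best1 (0.28) and Fth1 (-0.19) did not pass. The median over the 25 tested genes on each side of Fads2 was -0.07.

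The enzymes that build saturated and monounsaturated fatty acids did not pass. Fasn, fatty acid synthase, read 10.48 and 10.60 in KAP_KO and 10.36 and 10.50 in KAP_WT. These values overlapped, and the change was 0.11 (95% interval -0.13 to 0.35). Scd1, the stearoyl-CoA desaturase of liver and fat, read 10.26 and 10.21 in KAP_KO and 10.29 and 10.27 in KAP_WT (-0.05, interval -0.26 to 0.17). Its paralog Scd2, the form of brain and early life, read 11.08 and 11.27 in KAP_KO and 10.96 and 10.94 in KAP_WT. That difference of 0.23 missed the threshold (limma adjusted p = 0.157). The elongase Elovl6 had a change of -0.11 (adjusted p = 0.445).

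Of the enzymes that supply acetyl-CoA, Acly, which cleaves citrate, had a change of 0.02 (95% interval -0.21 to 0.25). Acss2, which activates acetate, varied most between replicates of a genotype in this branch, reading 6.98 and 6.60 in KAP_KO and 7.03 and 6.63 in KAP_WT. In both genotypes replicate 1 was the higher, and the change was -0.04 (interval -0.46 to 0.37). Acaca, the carboxylase that makes malonyl-CoA, depended on the probe set. The brighter one read 8.77 on both KAP_KO arrays and 8.94 and 8.98 in KAP_WT (-0.20, limma adjusted p = 0.157). The other read 7.51 and 7.54 in KAP_KO and 7.88 and 7.92 in KAP_WT (-0.38, adjusted p = 0.0230 over every single-gene probe set). Both probe sets were lower on both knockout arrays than on either wild-type array.

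Among the regulators Srebf1 rose, while Srebf2 and Insig1 did not pass. Srebf1 read 8.18 and 8.41 in KAP_KO and 7.53 and 7.79 in KAP_WT. Both knockout arrays were above both wild-type arrays, although replicates of a genotype differed by up to 0.25. The rise was 0.64 (SE 0.13, limma adjusted p = 0.0117), 1.56-fold (95% interval 1.26 to 1.92), and the adjusted p was 0.0898 without KAP_WT replicate 1. Of its 8 nearest tested genes on chromosome 11, Rai1 (0.84) and Pemt (0.47) were higher and Drc3 (-1.20) was lower.

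Srebf2 read 9.93 and 9.84 in KAP_KO and 9.83 and 9.87 in KAP_WT. The groups overlapped, and the change was 0.04 with a 95% interval of -0.18 to 0.26. Insig1, both a sensor protein and a sensitive SREBP target, read 9.30 and 9.11 in KAP_KO and 9.52 and 9.37 in KAP_WT. The knockout arrays were the lower ones, but the change of -0.24 missed the threshold (limma adjusted p = 0.155). With array medians subtracted it was -0.41 and was called lower (limma adjusted p = 0.0216), as were 6392 of the 18820 tested genes. Whether the changes of Srebf1 and Srebf2 differ from each other was not tested.

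**Figure D3:**
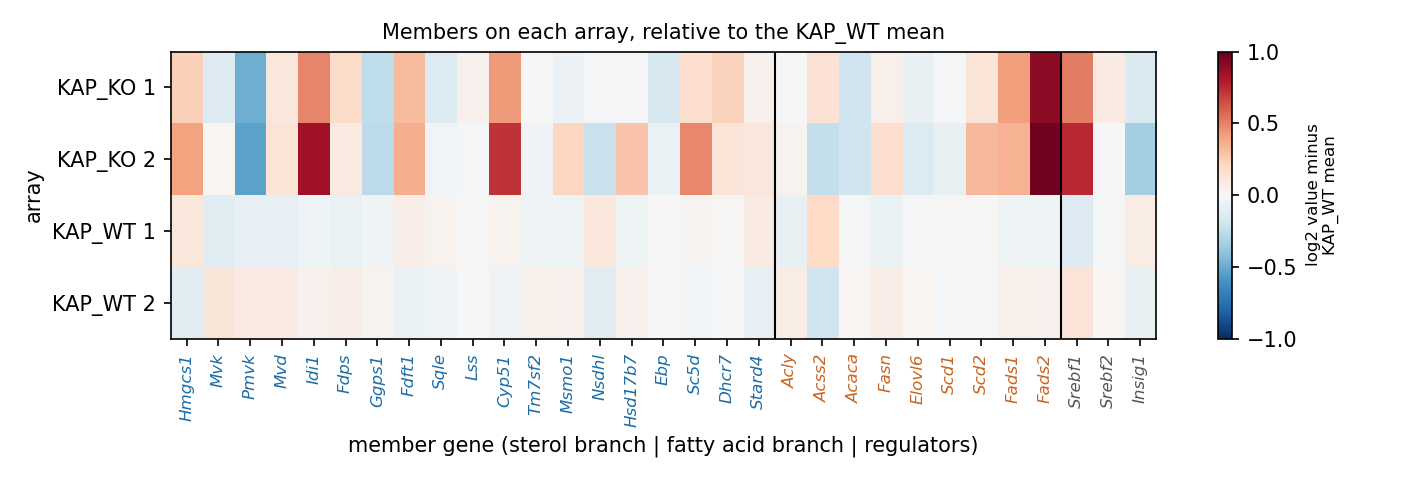
Each measured member (columns) on each array (rows, KAP_KO above KAP_WT), shown as its log2 value minus the KAP_WT mean; vertical lines separate the sterol branch, the fatty acid branch and the regulators. KAP_KO 2 is darker red than KAP_KO 1 for Idi1, Cyp51 and Sc5d, and the Fads2 column is dark red on both knockout arrays.

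Some sterol members differed between the knockout arrays. KAP_KO replicate 2 was above replicate 1 for 12 of 19 sterol members, and replicate 1 was the higher for 7. Over all tested genes KAP_KO replicate 1 was the higher for 9154 of 18820. Among all 31 members replicate 2 was above replicate 1 for 17, in the knockout and in the wild type alike. The largest gap among the sterol members, 0.34, was that of Idi1. Gaps of 0.29, 0.31 and 0.31 were found for Cyp51, Sc5d and Hsd17b7, all with replicate 2 higher. The branch median relative to the KAP_WT mean was 0.04 on KAP_KO replicate 1 and 0.11 on KAP_KO replicate 2. In the wild type, replicate 2 was above replicate 1 for 9 of 19, and no sterol member differed by more than 0.24.

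The genes around the pathway were taken from lists chosen with earlier results of these data known. Beside the counts in these lists, 26.9% of all tested genes were called, 14.2% higher and 12.7% lower. With genes below the median level left out of the fit, 41.8% of the remaining genes were called. Most of the listed genes lay above that level. Whether any list differs from these shares was not tested. Of 7 measured genes that move, cut or hold back SREBPs, 1 rose and 3 fell (0 and 3 with array medians subtracted). The escort Scap rose by 0.32 (limma adjusted p = 0.0387), reading 8.21 and 8.23 in KAP_KO and 7.91 and 7.89 in KAP_WT. Insig2, the second Insig gene, fell by 0.52 (adjusted p = 0.0359), and the median of its 25 tested neighbours on each side on chromosome 1 was -0.29. Rnf139, a ubiquitin ligase of the endoplasmic reticulum membrane, fell by 0.46 (adjusted p = 0.0164), and Sec23a, of the vesicle coat that carries Scap, by 0.33 (adjusted p = 0.0396). The calls of Scap and Sec23a were lost without any 1 array (adjusted p of 0.0902 to 0.167). Those of Insig2 and Rnf139 were lost without KAP_WT replicate 2 (0.172 and 0.0986), that of Insig2 also without KAP_KO replicate 1 (0.115) and that of Rnf139 without KAP_KO replicate 2 (0.0580). Mbtps1, the first Golgi protease, had a change of 0.14 (adjusted p = 0.293).

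Of 9 measured further SREBP targets 3 rose and 0 fell, with a median of -0.15; with array medians subtracted 2 were called higher and 4 lower. Fabp5, a fatty acid carrier, read 8.92 and 9.23 in KAP_KO and 7.33 and 7.73 in KAP_WT. That rise of 1.55 (limma adjusted p = 8.76e-04) kept its call when any 1 array was left out. The malic enzyme Me1, a source of NADPH, rose by 0.70 (adjusted p = 0.00558), and the sterol-regulated membrane protein gene Tmem97 by 0.40 (adjusted p = 0.0161). Me1 had adjusted p of 0.0595 and 0.0560 without KAP_WT replicate 1 or 2, and Tmem97 had 0.0666 without KAP_KO replicate 2, 0.0830 without KAP_WT replicate 1 and 0.0792 without KAP_WT replicate 2. Lpin1, Gpam, Mid1ip1, Aldoc, Elovl5 and Pgd did not pass.

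Of 7 measured cholesterol storage and transport genes 2 rose and 0 fell. Lipa, lysosomal acid lipase, which frees cholesterol from its esters, read 7.03 and 7.16 in KAP_KO and 4.66 and 4.26 in KAP_WT. The rise was 2.64 (SE 0.15, limma adjusted p = 9.28e-05). Npc1, which hands lysosomal cholesterol on, rose by 0.54 (adjusted p = 0.00544). Both kept their calls when any 1 array was left out, and the other 5 measured storage and transport genes did not pass, among them Npc2, the lysosomal partner of Npc1 (0.17, adjusted p = 0.224). Of 8 measured genes of the LXR pathway, through which excess sterols drive efflux, 2 rose and 2 fell. Abcg1, a sterol exporter, rose by 0.87 (adjusted p = 0.0196) and the phospholipid enzyme gene Lpcat3 by 0.55 (adjusted p = 0.00719), while Apoe fell by 0.66 (adjusted p = 0.00985) and the exporter Abca1 by 0.48 (adjusted p = 0.0289). Leaving out a KAP_WT array ended the calls of Abcg1 (0.146 and 0.117), Apoe (0.0894 and 0.0651) and Abca1 (0.161 and 0.120), and leaving out KAP_WT replicate 2 that of Lpcat3 (0.0640). Abca1 also lost its call without KAP_KO replicate 1 (0.108).

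Of 9 measured fatty acid oxidation genes 1 rose and 3 fell (1 and 4 with array medians subtracted). Cpt1a, which admits long-chain fatty acids to mitochondria, read 8.15 and 7.55 in KAP_KO and 9.26 and 9.27 in KAP_WT. It fell by 1.41 (limma adjusted p = 0.00215) and kept its call without any 1 array. Acadm, the medium-chain dehydrogenase gene, fell by 0.54 (adjusted p = 0.00930) and Slc25a20, the carnitine carrier gene, by 0.54 (adjusted p = 0.0171), while Acadl, the long-chain dehydrogenase gene, rose by 0.54 (adjusted p = 0.00672). Without KAP_WT replicate 1 the adjusted p was 0.0687 for Acadm, 0.0518 for Slc25a20 and 0.0566 for Acadl; Slc25a20 also had 0.0697 without KAP_KO replicate 2 and 0.120 without KAP_WT replicate 2. Of 7 measured genes that use isoprenoids, Fnta, a farnesyltransferase subunit gene, rose by 0.43 (adjusted p = 0.0142) and Pdss2, of ubiquinone side chain synthesis, fell by 0.35 (adjusted p = 0.0336); with array medians subtracted 0 were called higher and 3 lower. Each lost its call when any 1 array was left out, except Fnta without KAP_KO replicate 1 (adjusted p = 0.0339), with adjusted p of up to 0.150.

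**Figure D4:**
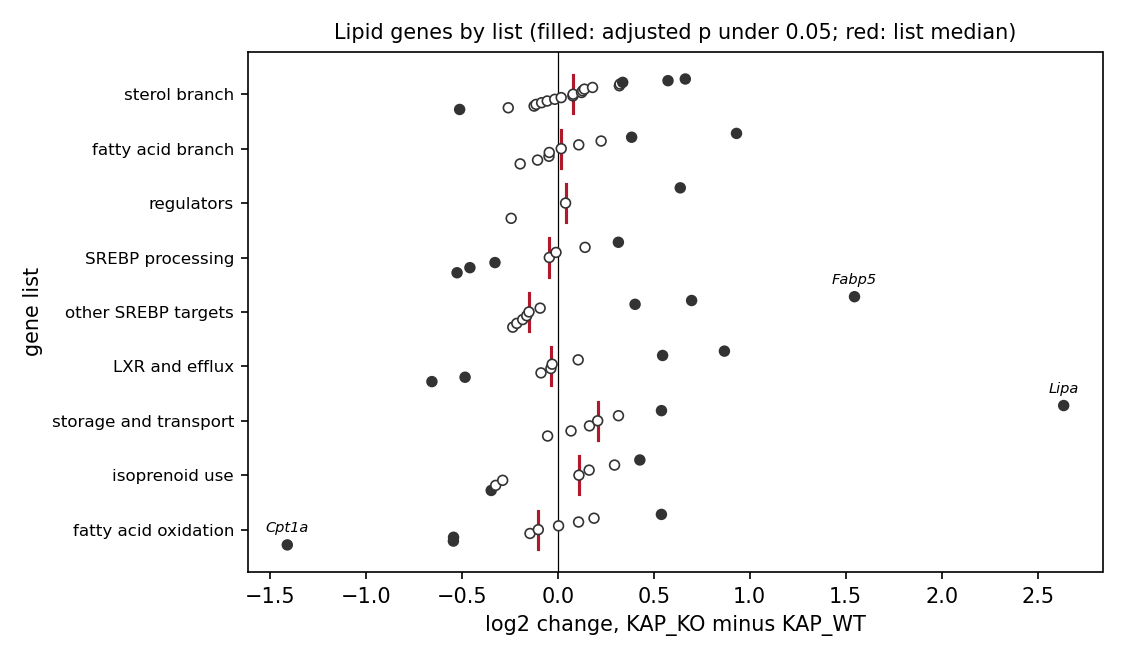
The log2 change (KAP_KO minus KAP_WT, horizontal axis) of each measured gene in the 3 member groups and 6 surrounding lipid lists (rows); filled points have a limma adjusted p under 0.05, red bars are list medians and labelled genes changed by more than 1.2. The members lie within 1 of no change, whereas Lipa, Fabp5 and Cpt1a lie farther out.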

How the data were processed

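Total RNA, 250 ng per sample, went onto Mouse Gene ST 1.1 arrays (Affymetrix), per the labels. The deposited values are on the log2 scale. The submitters' processing notes name affy and RMA, without versions. Detection calls were not used, so signal over background is unknown, and the number of arrays limits the precision. Of 35556 probe sets, 21218 are listed with 1 gene symbol, 1881 with several and 12457 are unnamed here; 21185 of the single-gene ones matched RefSeq (GRCm38.p6), which served for names and gene order. The genome build of the probe annotation is not known here. Genes with several probe sets (1386; Idi1 and Acaca among the members) were read from the brightest.

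KAP_KO was compared with KAP_WT by limma 3.58.1 in R 4.3.3 (lmFit, eBayes; 2 residual and 4.70 prior degrees of freedom), two-sided, with Benjamini-Hochberg adjustment over 18820 genes and a threshold of 0.05. Intervals are limma's 95% intervals. No p-value was adjusted over a list. The members, branches and lists were chosen with earlier results of these data known. The text names all members, the called genes of each surrounding list up to the 4 with the largest changes, and Trim28; neighbours and genes that did not pass outside the members were named after their values were seen. Simulated data with known changes were used to test the fit. The 14 alternatives were the replicate block, 2 other priors, 2 filters on dim genes, 2 further normalizations, probe set means, each array left out, a threshold of 0.1 and leaving out chromosomes 1, 6 and 14. When 1 array was left out, the lone array was assumed to vary like the other group. Other background corrections need scanner intensities and were not tried. The second probe sets of Idi1 and Acaca, and the limit of 1000 bases on promoter windows, were added after seeing the data.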

Additional observations from a re-analysis of the deposited data

How the results depend on the processing

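Across the 14 alternatives, 407 of 432 member changes kept their side of the threshold, 18 lost a call, 7 gained one and 0 called changes reversed. Many of the 407 belong to the 18 members that passed neither in the main fit nor under any alternative. Of the 7 called members, 1 (Fads2) kept its call under all 14. Fdft1 and Hsd17b7 had no value without chromosomes 1, 6 and 14. Subtracting array medians gave 8457 calls over all genes (2065 higher and 6392 lower, against 2676 and 2395), 2 regulator calls, a sterol median of -0.0896 and a fatty acid median of -0.151. Quantile normalization gave a fatty acid median of 0.0471. With 1 array left out, calls over all genes ranged from 2430 to 4350, in the sterol branch from 0 to 4, in the fatty acid branch from 1 to 1 and among regulators from 0 to 1; the 0 calls in the sterol branch, without KAP_WT replicate 2, stand against 4 in limma on all arrays. The median changes then ranged from 0.0437 to 0.118 (sterol) and from 0.0351 to 0.0933 (fatty acid). An adjusted p under 0.1 added Hmgcs1 and Ggps1. The second probe set of Acaca, chosen after seeing the data, gave -0.38 (limma adjusted p = 0.0230). Fewer arrays leave fewer degrees of freedom; the cause of the other shifts was not tested.

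With replicate number as a block, limma called 5093 genes and 6 members, Fdft1 being lost (adjusted p = 0.0536). Deviations of same-numbered arrays correlated at 0.145 over all genes, and with 2 pairs the numbers were not taken to pair the arrays.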
